A study of Mus musculus with 8 samples.

Results

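Transcripts that mark eosinophils, basophils and mast cells were followed in RNA-seq libraries of mouse knee cartilage. The set was given as 7 gene symbols (Epx, Prg2, Mcpt8, Prss34, Cpa3, Ms4a2 and Mcpt4), and each matched 1 of the 50462 gene identifiers in the deposited table, of which 35547 had a count in any library. The samples were medial knee cartilage caps from male C57Bl/6J wild-type mice, with 1 mouse per library. The naive group (n = 4, D0) had no surgery and was sampled at 11 weeks of age. In the DMM group (n = 4, D42), the medial meniscus tibial ligament of the left knee was transected at 11 weeks (destabilisation of the medial meniscus, a model of post-traumatic osteoarthritis) and tissue was taken 42 days later, at 17 weeks. No sham-operated mice were analysed here, so the effects of surgery, of the analgesic and anaesthetic given with it and of 6 more weeks of life cannot be told apart. The libraries held between 12479400 and 16548000 estimated counts.

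Eosinophils, basophils and mast cells are granule-bearing leukocytes that arise from myeloid progenitors in bone marrow and store cationic proteins or proteases in cytoplasmic granules. Epx (eosinophil peroxidase) and Prg2 (eosinophil major basic protein) encode granule proteins of eosinophils. Mcpt8 and Prss34 encode serine proteases (mouse mast cell protease 8 and 11) that in mice are mainly products of basophils, whereas Mcpt4 is a chymase of connective tissue mast cells. Cpa3 (carboxypeptidase A3) and Ms4a2 (the beta chain of the high-affinity IgE receptor) are made by both basophils and mast cells. GATA-family transcription factors, C/EBP epsilon and the cytokines IL-5, IL-3 and stem cell factor are known to direct the formation of these lineages.

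The 7 genes lie on 6 chromosomes, and only Mcpt4 (chromosome 14, 56059629 to 56062313) and Mcpt8 (chromosome 14, 56082166 to 56085273) share one, in the mast cell protease cluster (GRCm38 coordinates, GENCODE vM21). Because GATA factors bind DNA at GATA-containing sites, the 5 letters GATAA were searched on both strands in the 250 bases before each RefSeq start site (build GRCm38.p6). Of the 32851 promoters in the RefSeq table, 22.6% held these letters. Of the 6 genes with a promoter there, 4 held them (Prss34, Cpa3, Ms4a2 and Mcpt4). Prg2 was not among the entries. The 120 bases before the start site are shown for Prss34, Cpa3 and Ms4a2, which were called lower after DMM in the test below, and for Epx, in which no match was found. Sequences not shown go the other way: Mcpt8 held no match but was also called lower, and Mcpt4 held 1 but was not called. Each is written 5′ to 3′ on the strand of the gene, with GATAA or its reverse complement TTATC in capitals, and lies at chr17:25298274-25298393 (plus strand) for Prss34, chr3:20242182-20242301 (minus strand) for Cpa3, chr19:11623720-11623839 (minus strand) for Ms4a2 and chr11:87875537-87875656 (minus strand) for Epx.
Prss34: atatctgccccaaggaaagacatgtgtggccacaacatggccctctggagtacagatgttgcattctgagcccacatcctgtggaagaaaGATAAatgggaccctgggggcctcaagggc
Cpa3: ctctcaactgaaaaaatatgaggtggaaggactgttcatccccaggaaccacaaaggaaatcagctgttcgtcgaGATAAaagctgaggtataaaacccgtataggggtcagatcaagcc
Ms4a2: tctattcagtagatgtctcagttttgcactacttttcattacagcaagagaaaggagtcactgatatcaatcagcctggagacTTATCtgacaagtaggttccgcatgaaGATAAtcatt
Epx: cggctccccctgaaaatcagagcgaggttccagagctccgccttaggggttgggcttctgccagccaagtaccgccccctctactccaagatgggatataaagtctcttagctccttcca
The word began 30 bases before the start site in Prss34 and 45 bases before it in Cpa3. Ms4a2 held 3 copies, of which those 37 and 10 bases before the start are shown and the other began 224 bases before it. A match is a description of the sequence and does not show that a factor binds there.

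Levels of the 7 genes in naive cartilage, compared per kb of transcript, spanned a wide range. The eosinophil granule genes were highest, with Prg2 at 4668 ± 2392 and Epx at 722 ± 414 normalised counts per kb (SD, n = 4). The basophil proteases followed, with Prss34 at 256 ± 90.2 and Mcpt8 at 177 ± 70.7 normalised counts per kb. Their spreads between mice met, and the upper end of Prss34 also met the lower end of Epx. Cpa3 stood at 57.8 ± 16.5 and Ms4a2 at 47.4 ± 10.7 normalised counts per kb, again with spreads that met. Mcpt4 was lowest at 1.90 ± 0.994 normalised counts per kb. The DMM libraries gave the same order of means, from 2237 ± 1782 for Prg2 and 372 ± 293 for Epx through 99.7 ± 23.2 for Prss34, 84.0 ± 25.3 for Mcpt8, 34.7 ± 8.69 for Cpa3 and 24.5 ± 7.20 for Ms4a2 to 3.36 ± 4.07 for Mcpt4 (normalised counts per kb, SD, n = 4). There the spreads of Prg2 and Epx met as well, as did those of Epx and Prss34, Prss34 and Mcpt8, and Cpa3 and Ms4a2. These spreads are between mice and ignore that both genes of a pair were read in the same library. Within each library Prg2 had 1.49 to 2.76 times the counts of Epx from a shorter transcript (838 against 2689 bases). Prg2 was thus above Epx per kb in all 8 libraries.

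The question of the design was how gene expression in cartilage differed 42 days after joint destabilisation. The 2 basophil proteases and the 2 genes shared by basophils and mast cells were lower in DMM than in naive libraries, by 1.67-fold for Cpa3 to 2.57-fold for Prss34. The 2 eosinophil granule genes had group means that differed by a similar factor, but their values varied so widely between mice that neither passed the test. Mcpt4 was at or near the limit of detection. A gene was called when the Benjamini-Hochberg (BH) adjusted p of DESeq2, taken over all genes, was 0.05 or less and the change was at least 1.5-fold. By this rule 4 of the 7 genes were called lower and 0 higher, with Mcpt4 receiving no adjusted p. Of all 18422 genes with an adjusted p, 13.2% were called, 5.7% lower and 7.47% higher. The median log2 fold change was -1.01 over the 6 genes that received an adjusted p and -0.014 over all genes that did. In bulk tissue, fewer cells of a type and less RNA per cell cannot be told apart.

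**Figure D1:**
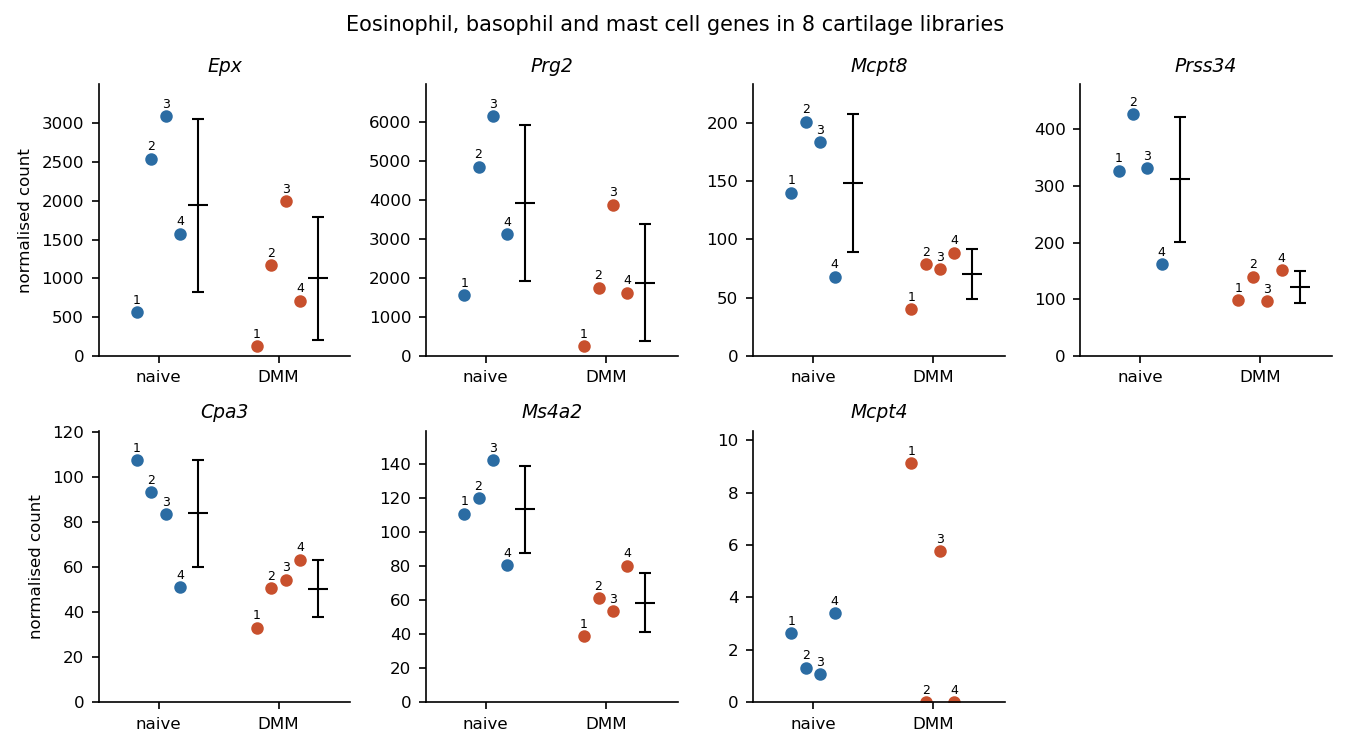
Normalised counts (y axis, linear, from 0) of each of the 7 genes in the 4 naive (blue) and 4 DMM (orange) libraries, with the replicate number above each point and the mean ± SD as black bars (omitted for Mcpt4). All naive values lay above all DMM values for Prss34 and, by a narrow margin, for Ms4a2, and Epx ranged from 124 to 3091.

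Prss34 is described first, as the gene of the set with the smallest adjusted p in this comparison of all 8 libraries without covariates. Its normalised counts were 327, 427, 332 and 162 in naive replicates 1 to 4 and 98.7, 140, 96.3 and 152 in DMM replicates 1 to 4. Every naive library was above every DMM library, although naive replicate 4 was close to the DMM range. The log2 fold change was -1.36 (SE 0.27, DESeq2, BH-adjusted p = 2.11e-05), a 2.57-fold lower level. Mcpt8, the other basophil protease, had 140, 201, 183 and 68.0 normalised counts in the naive group and 39.8, 78.5, 74.1 and 88.4 in the DMM group. Here naive replicate 4 lay inside the DMM range, and the other 3 naive libraries lay above it. The log2 fold change of Mcpt8 was -1.08 (SE 0.33, DESeq2, BH-adjusted p = 0.00917). Without naive replicate 2, the adjusted p of Mcpt8 was 0.0641 and only Prss34 and Ms4a2 of the 7 genes were called.

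Ms4a2 had 111, 120, 142 and 80.5 normalised counts in the naive group and 39.0, 61.3, 53.5 and 80.3 in the DMM group. The groups did not overlap, but naive replicate 4 and DMM replicate 4 were nearly equal. The log2 fold change was -0.96 (SE 0.27, DESeq2, BH-adjusted p = 0.00318). In 4.91% of its 31-base words the Ms4a2 transcript sequence matched another gene, whereas Epx, Prg2, Mcpt8, Prss34 and Cpa3 shared none. Cpa3 had 107, 93.1, 83.5 and 51.0 normalised counts in the naive group and 33.2, 50.5, 54.3 and 63.2 in the DMM group, with naive replicate 4 inside the DMM range. Its log2 fold change of -0.74 (SE 0.29) was just past the threshold (DESeq2, BH-adjusted p = 0.0487), and in edgeR's quasi-likelihood test the adjusted p was 0.0798. Groups that did not overlap, with naive above DMM, were found for 2 of the 6 genes with an adjusted p and for 9.96% of all such genes. Over all genes edgeR called 11.3%, and it called 3 of the set (Prss34, Ms4a2 and Mcpt8).

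Among the 6 genes with an adjusted p, the eosinophil granule genes Epx and Prg2 varied most between libraries. Epx had 562, 2542, 3091 and 1574 normalised counts in the naive group and 124, 1171, 1993 and 712 in the DMM group. The groups overlapped, and the highest value was 25.0 times the lowest. The log2 fold change was -0.96 (SE 0.84, 95% interval -2.59 to 0.68), and DESeq2 gave an adjusted p of 0.472. Prg2 had 1550, 4844, 6141 and 3114 normalised counts in the naive group and 257, 1748, 3872 and 1622 in the DMM group. It ranked the 8 libraries in the same order as Epx, with naive replicate 3 highest and DMM replicate 1 lowest for both. The log2 fold change of Prg2 was -1.06 (SE 0.78, 95% interval -2.59 to 0.46, DESeq2, BH-adjusted p = 0.371), so a lower level of more than 2-fold or no difference could not be told apart at this spread. Leaving out 1 library at a time moved the log2 fold change of Epx between -0.59 (without DMM replicate 1) and -1.54 (without DMM replicate 3) and that of Prg2 between -0.70 and -1.69 (without the same libraries), and neither gene was called in any of these fits.

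Mcpt4 had 3, 1, 1 and 3 estimated counts in the naive group and 11, 0, 7 and 0 in the DMM group. A count of 0 allows up to 3 counts, or 0.240 CPM (counts scaled to the library total) in DMM replicate 2 and 0.206 in DMM replicate 4. The 2 DMM libraries above 0 gave 0.679 and 0.423 CPM, against 0.0744 to 0.236 CPM among the naive libraries. No difference was detectable at this depth, and 12.2% of its 31-base words were shared with other genes, most with Cma2. These limits cover counting error only.

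The label of the set was checked against further genes known from each cell type. Of 8 other eosinophil genes, all had an adjusted p, 1 was called lower and 0 higher, with a median log2 fold change of -0.72. The shares to set beside this and each later list are those over all genes, 5.7% called lower and 7.47% higher. A single call in a short list therefore says little. Prg3, the neighbour and paralogue of Prg2 on chromosome 2 (84988215 to 84993886), had 68.6, 224, 329 and 181 normalised counts in the naive group and 14.9, 87.1, 218 and 83.9 in the DMM group, and ranked the libraries within each group in the same order as Epx. Ccr3, the eotaxin receptor, was called lower, with 120, 177, 155 and 191 normalised counts in the naive group and 42.3, 92.5, 114 and 111 in the DMM group and groups that did not overlap (log2 fold change -0.83, SE 0.29, DESeq2, BH-adjusted p = 0.0223, edgeR adjusted p = 0.068). Siglecf, an inhibitory lectin on eosinophils, had a log2 fold change of -0.65 (DESeq2, BH-adjusted p = 0.145), and Alox15, the lipoxygenase of eosinophils and some macrophages, one of -0.95 (DESeq2, BH-adjusted p = 0.206). The ribonuclease genes Ear1, Ear2 and Ear6 spread from 22.4 to 827 normalised counts over the libraries. Values of Ear1 and Ear2 are uncertain, since 73.7% and 60.5% of their 31-base words were shared with other genes.

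Of 6 other basophil genes, 3 had an adjusted p and 2 were called lower. Cd200r3, an activating receptor of basophils and mast cells, had 68.6, 50.6, 57.8 and 54.4 normalised counts in the naive group and 23.2, 21.5, 28.0 and 34.3 in the DMM group. These ranges were well separated (log2 fold change -1.12, SE 0.27, DESeq2, BH-adjusted p = 0.000692). Hdc, the enzyme that makes histamine, was at 628 ± 132 in the naive group and 377 ± 79.1 normalised counts in the DMM group (SD, n = 4), with overlapping groups (log2 fold change -0.74, DESeq2, BH-adjusted p = 0.00163). Il3ra, the alpha chain of the IL-3 receptor, had a log2 fold change of -0.06 (DESeq2, BH-adjusted p = 0.884). Il4, Il13 and Fcer1a, the other 3 genes, stayed at or below 15.96 normalised counts in every library.

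Genes that define mast cells were at or near 0. Among 10 mast cell genes the tryptase Tpsab1 and the receptor Mrgprb2 had 0 counts in all 8 libraries, Tpsb2 reached at most 4.54 normalised counts and the chymase Cma1 at most 14.1. Only Kit, the stem cell factor receptor that blood progenitors also carry, received an adjusted p. Kit had 656, 660, 658 and 615 normalised counts in the naive group and 406, 587, 492 and 458 in the DMM group, without overlap, but its change of 1.33-fold was under the fold threshold (log2 fold change -0.42, DESeq2, BH-adjusted p = 0.011). Epx, Prg2, Mcpt8 and Prss34 were well above the limit of detection, with at least 48 estimated counts in every library. The basophil genes Il4, Il13 and Fcer1a were low and had no adjusted p. Among mast cell genes that basophils do not share, Cma1 had 1 to 17 estimated counts and Mrgprb1 1.05 to 6.24 over the 8 libraries, and the 2 genes of the set with higher counts that mast cells make, Cpa3 and Ms4a2, are also made by basophils.

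**Figure D2:**
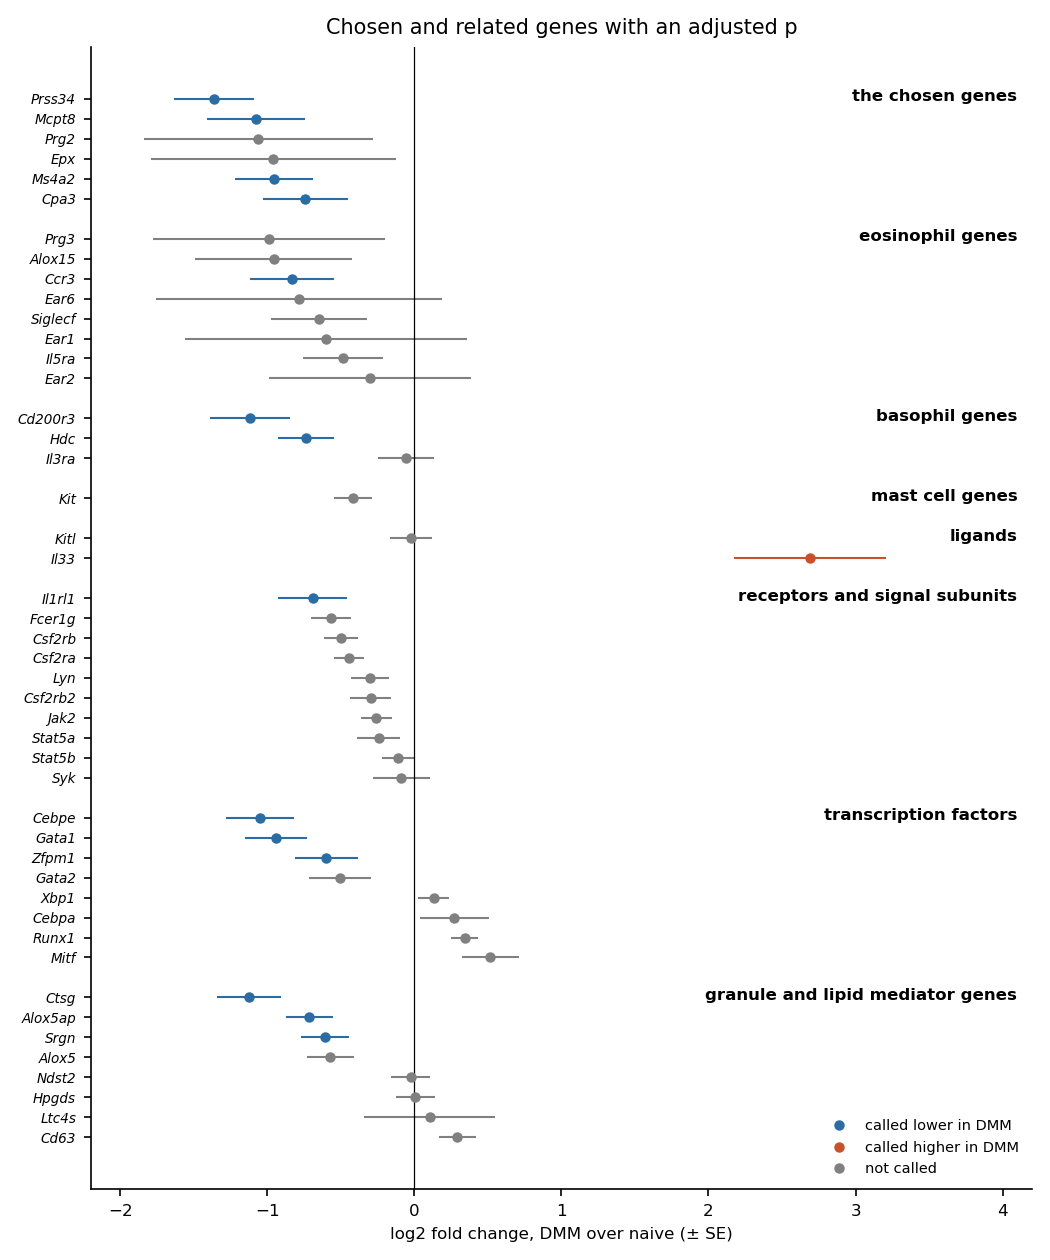
Log2 fold change (x axis, DMM over naive, ± SE) of the 6 chosen genes and the 40 related genes that received an adjusted p, grouped by list; blue and red points were called lower and higher, and grey points were not called. Of the chosen genes 4 were called lower, of the related genes 10 were called lower and 1, Il33, higher.

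The pathway genes were taken from 4 further lists. Over all 58 related genes in the 7 lists, 40 had an adjusted p, 10 were called lower and 1 higher, and their median log2 fold change was -0.47. Of all genes with an adjusted p, 5.7% were called lower and 7.47% higher. Among 8 ligands, Il33 was called higher. Il33 is an alarmin of stromal cells that activates basophils, eosinophils and mast cells. It had 17.6, 11.97, 8.56 and 19.3 normalised counts in the naive group and 53.9, 29.0, 192 and 96.6 in the DMM group. The lowest DMM library was above the highest naive library, with DMM replicate 3 far above the rest, and the level was 6.46-fold higher (log2 fold change 2.69, SE 0.52, DESeq2, BH-adjusted p = 8.25e-06). Kitl, which encodes stem cell factor, had a log2 fold change of -0.02 (DESeq2, BH-adjusted p = 0.94). The other 6 ligands, Il5, Il3, Csf2 and the eotaxins Ccl11 and Ccl24 among them, had no adjusted p.

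Of 10 receptors and signal subunits, all had an adjusted p and 1 was called lower. This was Il1rl1, the receptor of IL-33, at 251 ± 79.2 normalised counts in the naive group and 155 ± 27.7 in the DMM group (SD, n = 4), with overlapping groups (log2 fold change -0.69, SE 0.24, DESeq2, BH-adjusted p = 0.0209, edgeR adjusted p = 0.0558). Csf2ra and Csf2rb, chains of the GM-CSF receptor (Csf2rb serves IL-3 and IL-5 as well), had log2 fold changes of -0.45 (DESeq2, BH-adjusted p = 0.000237) and -0.50 (DESeq2, BH-adjusted p = 0.000314). Fcer1g, the gamma chain of the IgE receptor, had a log2 fold change of -0.57 (DESeq2, BH-adjusted p = 0.000651). These 3 passed the adjusted p but not the fold threshold, and none of them had overlapping groups. Csf2rb shared 29.3% of its 31-base words with other genes, most with Csf2rb2.

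Of 8 transcription factors, 3 were called lower and 0 higher. Cebpe, which neutrophils and eosinophils need to form secondary granules, had 345, 609, 463 and 332 normalised counts in the naive group and 144, 230, 258 and 215 in the DMM group, without overlap (log2 fold change -1.05, SE 0.23, DESeq2, BH-adjusted p = 0.000144). Gata1, a factor of the erythroid, megakaryocyte, eosinophil, basophil and mast cell lineages, had 502, 568, 382 and 313 normalised counts in the naive group and 206, 218, 300 and 198 in the DMM group. The lowest naive value was just above the highest DMM value (log2 fold change -0.94, SE 0.21, DESeq2, BH-adjusted p = 0.000194). The third, Zfpm1, encodes the GATA1 partner FOG1 and had a log2 fold change of -0.60 (DESeq2, BH-adjusted p = 0.0294, edgeR adjusted p = 0.0789). Runx1 went the other way by less than 1.5-fold (log2 fold change 0.34, DESeq2, BH-adjusted p = 0.00189). So did Mitf (log2 fold change 0.52, DESeq2, BH-adjusted p = 0.0381, edgeR adjusted p = 0.0611). Of the 8 factors, 4 had a log2 fold change below 0, and the median was -0.19.

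Of 8 granule and lipid mediator genes, 3 were called lower and 0 higher. Ctsg, the cathepsin G of neutrophil and mast cell granules, had 784, 1010, 947 and 952 normalised counts in the naive group and 367, 276, 421 and 630 in the DMM group, without overlap (log2 fold change -1.12, SE 0.22, DESeq2, BH-adjusted p = 8.83e-06). Alox5ap, the partner of 5-lipoxygenase in leukotriene synthesis, had a log2 fold change of -0.71 (SE 0.16, DESeq2, BH-adjusted p = 0.000133), and Srgn, the granule proteoglycan serglycin, one of -0.61 (SE 0.16, DESeq2, BH-adjusted p = 0.00204). Hpgds, the synthase of prostaglandin D2 in mast cells, was at 275 ± 23.2 in the naive group and 276 ± 23.0 normalised counts in the DMM group (SD, n = 4).

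The 2 eosinophil genes and the 4 basophil and shared genes varied differently between mice. Within a library, Prg2 counts were 1.49 to 2.76 times those of Epx, and Prg3 counts were 0.0443 to 0.0583 of those of Prg2. Prss34 counts were likewise 1.30 to 2.48 times those of Mcpt8, and Ms4a2 counts 0.979 to 1.70 times those of Cpa3. The ratio of Epx to Prss34 was far less steady. It was 1.72, 5.95, 9.32 and 9.71 in the naive group and 1.25, 8.38, 20.7 and 4.70 in the DMM group, a 16.5-fold range. These ratios are free of library scaling and are given as descriptions. The contrast does not cover all eosinophil genes, since the surface genes below varied over ranges like those of the basophil and shared genes.

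**Figure D3:**
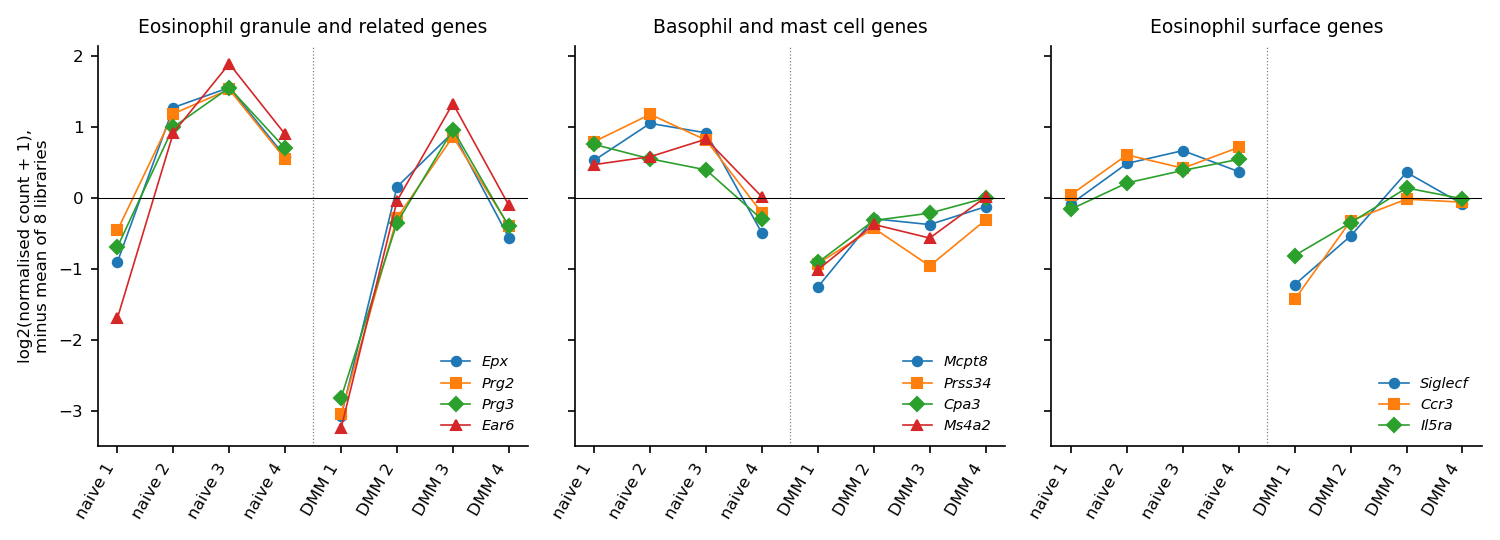
Log2(normalised count + 1) minus the mean over the 8 libraries (y axis) in each library (x axis) for 4 eosinophil genes of granules, the 4 basophil and shared genes, and 3 eosinophil surface genes; lines only join the points of a gene within a group. Epx, Prg2, Prg3 and Ear6 moved together and were low in naive replicate 1 and DMM replicate 1, while the other genes varied less.

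Surface genes of eosinophils varied less than the granule genes. Over the 8 libraries, the highest value was 3.80 times the lowest for Siglecf, 4.504 times for Ccr3 and 2.60 times for Il5ra, the IL-5 receptor, against 25.0 times for Epx, 23.9 times for Prg2 and 22.0 times for Prg3. For the basophil and shared genes it was 5.05 times for Mcpt8, 4.43 times for Prss34, 3.65 times for Ms4a2 and 3.23 times for Cpa3. DMM replicate 1 was the lowest library for Epx, Prg2, Mcpt8, Cpa3 and Ms4a2, and for Prss34 DMM replicate 3 was slightly lower.

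Whether genes of the set changed by different amounts was tested on the log2 ratio of each of the 21 pairs within a library. With 4 against 4 libraries, the two-sided exact permutation test over 70 assignments cannot give a p below 0.0286. This value was reached by 1 pair, Prss34 over Cpa3, whose log2 ratio was 1.86 ± 0.28 in the naive group and 1.27 ± 0.33 in the DMM group (SD, n = 4; exact permutation test p = 0.0286, Benjamini-Hochberg adjusted p = 0.60). No pair passed after adjustment over the 21 pairs, but a lone pair at the smallest p receives an adjusted p of 0.60, so the threshold was out of reach unless most pairs sat at that value. The test therefore says little on whether the genes changed by different amounts. For Epx over Prss34, the mean log2 ratios were 2.46 ± 1.17 in the naive group and 2.50 ± 1.69 in the DMM group (SD, n = 4, exact permutation test p = 0.971, adjusted p = 0.971).

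**Figure D4:**
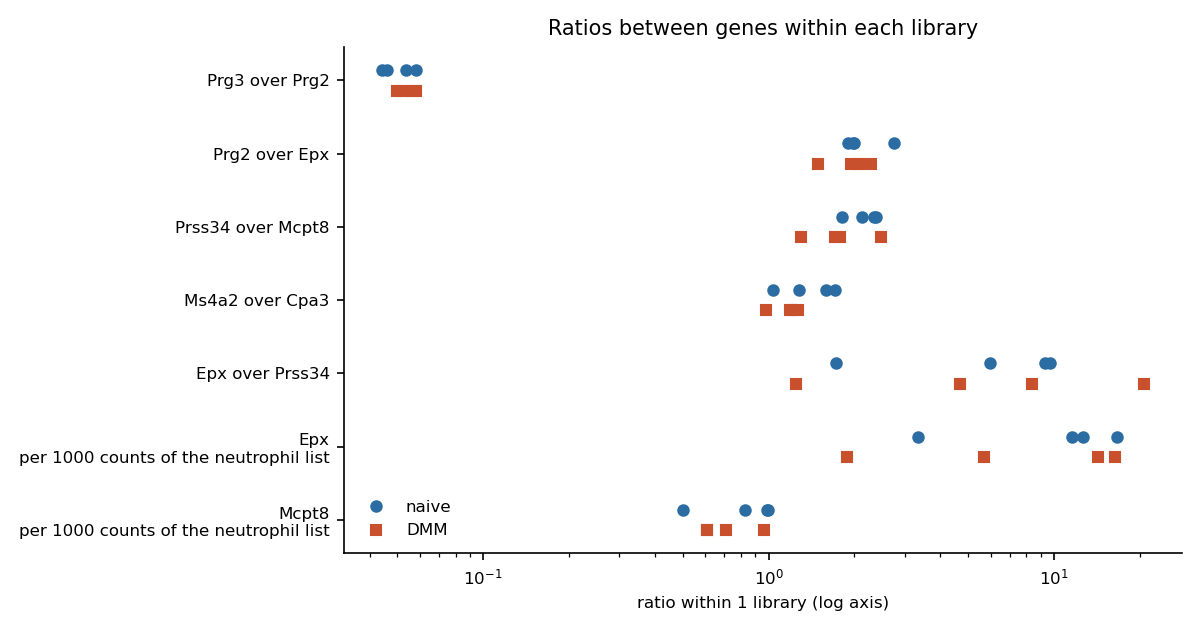
Ratios of estimated counts within each library (x axis, log scale) for 5 pairs of genes and for Epx and Mcpt8 per 1000 counts of the neutrophil list, with naive libraries as blue circles and DMM libraries as orange squares. Prg3 over Prg2 stayed within 0.0443 to 0.0583, while Epx over Prss34 spread from 1.25 to 20.7.

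Neutrophil lineage and erythroid markers were lower in DMM libraries together with the basophil and shared genes, while B cell and macrophage markers were not called. Of 11 neutrophil lineage markers, 9 were called lower, and their summed normalised counts were 135694 to 201572 in the naive group and 65475 to 125117 in the DMM group. Of 9 erythroid markers, 8 were called lower, with sums of 156449 to 305347 in the naive group and 80677 to 172805 in the DMM group. Per 1000 counts of the neutrophil list, Mcpt8 lay between 0.501 and 0.997 in naive and between 0.608 and 0.962 in DMM libraries. Prss34 lay between 1.195 and 2.12 and between 0.794 and 1.71 on the same scale, Cpa3 between 0.376 and 0.637 and between 0.448 and 0.619, and Ms4a2 between 0.592 and 0.767 and between 0.439 and 0.750. The naive and DMM ranges thus overlapped for all 4 genes on this scale. Naive and DMM means were 1.76 ± 0.40 and 1.31 ± 0.40 for Prss34 and 0.83 ± 0.23 and 0.72 ± 0.17 for Mcpt8 (SD, n = 4). They were 0.65 ± 0.08 and 0.61 ± 0.13 for Ms4a2 and 0.48 ± 0.11 and 0.52 ± 0.07 for Cpa3. Differences on this scale were not tested. Before scaling, Mcpt8 and Cpa3 already overlapped and Ms4a2 was apart only by a narrow margin, so the overlap says little for these genes. Epx per 1000 neutrophil list counts still ranged from 1.89 to 16.7 and Prg2 from 3.93 to 33.2. The 4 basophil and shared genes summed to 2.97 ± 0.798 in the naive group and 3.15 ± 1.35 in the DMM group per 1000 counts of the erythroid list (SD, n = 4). What part the neutrophil and erythroid transcripts have in these results was not tested.

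The 7 genes together held 196, 490, 694 and 351 CPM in the naive group and 44.7, 242, 451 and 207 in the DMM group. Per 1000 counts of the neutrophil list the sum was 37.1 ± 15.4 in the naive group and 30.4 ± 18.5 in the DMM group, and per 1000 counts of the erythroid list 31.5 ± 18.5 and 28.6 ± 14.9 (SD, n = 4). Most of the sum was Prg2 and Epx, so its spread followed theirs.

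The genes most like each of the 6 detected genes were sought among 13193 genes with a symbol and a mean of at least 50 normalised counts, by the root mean square difference of log2(normalised count + 1), centred on the mean, over the 8 libraries. For Epx these were Prg2 (0.233), Prg3 (0.246) and Ear6 (0.42), and for Prg2 they were Prg3 (0.149), Epx (0.233) and Alox15 (0.507), where the median gene differed by 1.41 and 1.35. All were eosinophil genes of the lists above. For Mcpt8 the nearest were Mogat2 (0.204), Chil3 (0.266), a chitinase-like protein of myeloid cells, and I830127L07Rik (0.274). For Prss34 they were Mcpt8 (0.291), Mpig6b (0.299), a receptor of megakaryocytes and platelets, and Camp (0.3), the cathelicidin of neutrophil granules. For Cpa3 they were Mcemp1 (0.114), Adpgk (0.138) and Slco4c1 (0.152), and for Ms4a2 they were Fcnb (0.139), a ficolin of neutrophils and monocytes, F730016J06Rik (0.155) and Hmgn2 (0.171). The medians over all genes were 0.738, 0.773, 0.528 and 0.6 for Mcpt8, Prss34, Cpa3 and Ms4a2. These values describe likeness in 8 libraries that share the group difference.

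The other marker lists describe what else the libraries held. Mean naive sums were 224046 normalised counts for erythroid, 172730 for neutrophil lineage and 154355 for osteoblast and osteocyte markers, against 48861 for chondrocyte markers. The lists differ in their genes, so these sums are not shares of cells. Chondrocyte markers such as Acan and Col2a1 were present in every library, with sums of 34063 to 65719 in the naive group and 85686 to 157660 normalised counts in the DMM group, and 5 of 8 were called higher. Col9a1 and Matn3 had log2 fold changes of -0.36 and -0.29 and were not called (DESeq2, BH-adjusted p = 0.834 and 0.878). Of 7 osteoblast and osteocyte markers, 7 were called higher, and of 5 osteoclast markers with an adjusted p, 1 was. None of 8 B cell markers was called, and all 8 had log2 fold changes above 0 (median 0.43; for Ebf1 the groups did not overlap, DESeq2, BH-adjusted p = 0.0204, with a change under 1.5-fold). None of 7 macrophage markers was called (median log2 fold change -0.18), and of 7 T and NK cell markers 1 was called lower. Endothelial markers gave 1 lower and 2 higher of 6, and synovial fibroblast markers 2 higher of 6. With 5.7% of all genes called lower and 7.47% higher, lists with 1 or 2 calls show little. Skeletal muscle markers summed to 1215 normalised counts in DMM replicate 1 and 51.4 to 129 in the other DMM libraries, and in naive libraries to 461 in replicate 3 and 73.2 to 121 in the rest. Without DMM replicate 1, 3 of the 7 genes were called lower (Cpa3 then had a DESeq2, BH-adjusted p of 0.174).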

How the data were processed

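RNA was sequenced from medial knee cartilage caps of 4 naive and 4 DMM mice. The deposited table holds estimated counts per gene, which the authors obtained with Kallisto (pseudo-alignment) after trimming in Trimmomatic, with transcripts summed to genes in tximport. Reads that fit several transcripts are divided between them, so 39.0% of the values were not whole (tolerance 1e-06). The study's methods name GRCm38, while the labels name another build, so the build is uncertain. The labels name an NEB low input kit and the methods a SMART-Seq kit, and strand is not given in the sources used here. Coordinates and transcript lengths (longest protein-coding transcript) came from GENCODE vM21.

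Rounded counts were tested with DESeq2 version 1.42.0 (R version 4.3.3, Wald test, default filters, no covariates), the test named in the study, over all genes. Normalised counts are estimated counts divided by median-of-ratios size factors. Log2 ratios of gene pairs used a pseudocount of 0.5 and exact permutation tests (scipy version 1.17.1). The scripts were first tested on simulated data. Named genes are the 7 given ones, in each related list up to 3 genes with the smallest adjusted p, and, for each of the 7 whose mean normalised count was 20 or more, the 3 genes nearest to it. Other genes of the lists (Prg3, Il1rl1, Zfpm1 and Hpgds among them) were named after their values were seen. The genes and lists were chosen with earlier results of these data known.

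Alternatives were edgeR version 4.0.16 (quasi-likelihood test), TMM factors, total count scaling, no filter on low counts, a mean of at least 10 counts, no Cook's filter, no fold threshold, the replicate number as a block, a pair pseudocount of 1 and each library left out in turn.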

Additional observations from a re-analysis of the deposited data

How the results depend on the processing

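Prss34 and Ms4a2 were called lower under all 16 alternatives, with log2 fold changes of -1.58 to -1.17 and -1.15 to -0.80. Mcpt8 was called under 15 of 16 (DESeq2 or edgeR adjusted p 3.76e-05 to 0.0641), and Cpa3 under 5 of 16 (adjusted p 0.00615 to 0.227). The setting with no fold threshold keeps every gene called in the main fit, so its outcome for these genes was fixed in advance. Without Cook's filter the DESeq2 adjusted p of Cpa3 was the same as in the main fit (0.0487). Scaling by the total count moved the median log2 fold change of all genes to 0.138, and under it 3 of the 7 genes, 4 related genes lower and 2 higher were called. With no fold threshold 15 related genes were called lower and 3 higher. Leaving out 1 library at a time gave 2 to 4 of the 7 genes, 6 to 12 related genes lower (6 without naive replicate 2 and 6 without DMM replicate 2, against 10 with all libraries) and 1 to 2 higher; the causes were not tested. The number of pairs stayed at 0. This was fixed in advance with a library left out and with the replicate block, where the smallest p of the exact permutation test is 0.0571 and 0.125. With a pair pseudocount of 1 the threshold was nearly out of reach, as in the main test, and the lowest adjusted p of the permutation test was 0.60. Mcpt4 had values under 14 alternatives and an adjusted p under 1 of them (0.97, no filter on low counts). Its log2 fold change was 0.83 with all libraries, -0.10 (without DMM replicate 1) to 1.24 with 1 library left out, and turned to -0.28 with the replicate number as a block.

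Replicate numbers 1 to 4 occur in both groups but share no animal. Deviations of same-numbered libraries correlated at 0.0498, 0.058, -0.119 and 0.117, and 3 of 8 libraries correlated best with their own number, so the numbers were not taken as pairs. Epx, Prg2, Prg3 and Ear6 nevertheless had the same order of replicate numbers in both groups (3, 2, 4 and 1, highest first). Whether this reflects a link between same-numbered libraries was not tested. With the replicate block in DESeq2, 5 of the 7 genes were called, with log2 fold changes of -1.25 for Epx (adjusted p = 3.08e-06) and -1.40 for Prg2 (adjusted p = 0.00636) and an adjusted p of 0.177 for Cpa3. The share of all genes called is given only for the main DESeq2 fit and for edgeR. Counts of genes called under the other alternatives, here and above, therefore have no background beside them.

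With 4 libraries a group, the spread of Epx and Prg2 limits any statement on their change, and counts of 0 to 11 limit Mcpt4.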

Other observations

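The chymase transcripts Mcpt4 and Cma1 of connective tissue mast cells were highest in the library with the most skeletal muscle transcript, but Mcpt4 did not follow muscle among the other libraries. DMM replicate 1 had 9.12 normalised counts of Mcpt4 and 14.1 of Cma1, beside a muscle marker sum of 1215. In naive replicate 3, the naive library with the highest muscle sum (461), Cma1 was at 9.63 normalised counts and Mcpt4 at 1.07, its lowest naive value. Naive replicates 1 and 4, with muscle sums of 82.7 and 121, had 2.64 and 3.40 of Mcpt4. The remaining 6 libraries had 0.903 to 4.40 normalised counts of Cma1, and DMM replicate 3 had 5.76 of Mcpt4 with a muscle sum of 59.3. These counts are small, the pattern was noticed in the data, and no test was run on it.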
